A study of Mus musculus with 6 samples.

Results

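The genes described here are 10 human signalling genes. They are the receptor tyrosine kinases EGFR, ERBB2, ERBB3, IGF1R, INSR, MET, AXL and FGFR1 and the insulin receptor substrates IRS1 and IRS2. They were chosen by gene symbol, with earlier results of these data known. Together they make up 10 of 19775 genes and 45 of the 41097 probe sets that the platform annotation ties to a single gene. Of the 45 probe sets, 25 had a mean log2 intensity of at least 4 over all arrays and were tested, and each of the 10 genes kept at least 1. The other 20 lay below that level, 10 of them at the lowest value of the table in all 6 arrays.

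The 6 arrays measured total RNA of subcutaneous tumours in SCID mice, which lack working T and B cells but keep other blood cells and stroma. All tumours came from 1 cell line, NCI-H2228, a human lung adenocarcinoma line with an EML4-ALK fusion. The 3 groups differed in 1 oral dose, which was vehicle (0 mg/kg) or CH5424802 at 4 mg/kg or at 20 mg/kg, with tumours collected 6 hours after it. CH5424802, also known as alectinib, inhibits the ALK kinase. Every group had 2 arrays. No label states that they came from separate mice, so p-values measure the spread between arrays, which may be technical. The submitters list mouse as the organism although the probe sets are those of human genes. In such bulk tumour RNA, fewer cells of a type and less RNA per cell cannot be told apart.

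Receptor tyrosine kinases pass signals of growth factors outside the cell to the RAS, RAF, MEK and ERK cascade and to PI3K and AKT. In lung tumours that depend on ALK, other receptors that feed the same pathways are known as bypass receptors, because their activity can keep a cell growing while ALK is inhibited. IRS1 and IRS2 carry no kinase of their own: they dock on the insulin and IGF1 receptors and recruit PI3K. Transcript levels, which are what an array reads, say nothing of receptor protein or phosphorylation.

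Values are on the log2 scale of intensity throughout, and a change is a difference of log2 means, the dosed or more highly dosed group minus the other. The lowest possible value was 2.19. Levels of different genes cannot be set against each other, since each probe set has its own affinity. A gene was called when its limma p-value, adjusted over all 10271 tested genes by the Benjamini-Hochberg method, was under 0.05. The SE and the 95% interval come from the same fit, whose spread is pooled over the 3 groups. The control for the 5′ end of the 18S ribosomal RNA gave 10.74 and 11.99 with vehicle, 8.93 and 8.55 in the 4 mg/kg arrays and 9.16 and 9.32 in the 20 mg/kg arrays. This control was thus higher with vehicle than after either dose, and its part in the comparisons with vehicle was not tested. In the 20 mg/kg and 4 mg/kg arrays this control lay within 1 log2 unit. Among 9 lung epithelial markers, all tested, the summed level ran from 16.12 to 16.30 at 20 mg/kg and from 16.33 to 16.48 with vehicle. KRT18, a keratin, fell by 1.54 at 20 mg/kg (adjusted p = 0.0416), the only 1 of the 9 to be called. The 9 did not go one way: against vehicle, the arrays at 20 mg/kg lay higher without overlap for 2 and lower for 5, and 5 had p under 0.05 before adjustment. Of all genes, 24.5% lay higher and 25.9% lower without overlap, 24.2% had p under 0.05, and 4.33% were called. The keratins KRT7, KRT8 and KRT19 differed by -0.92, -0.88 and -0.34, and the adhesion proteins EPCAM and CDH1 by 0.50 and 0.23, none of them called (adjusted p = 0.0529 to 0.232). NKX2-1 read 11.67 and 11.74 at 20 mg/kg and 11.55 and 11.68 with vehicle, and NAPSA 12.61 and 12.61 against 12.61 and 12.73. SFTPB read 8.56 and 8.52 at 20 mg/kg and 8.67 and 9.32 with vehicle. The fibroblast markers, 5 of 8 tested, summed to 15.13 and 15.30 at 20 mg/kg and to 15.17 and 15.27 with vehicle, COL1A1 making up most of it, while PDGFRB was at the floor and LUM and THY1 were near it. Of 7 macrophage and leukocyte markers 2 were tested, with CD163 at the floor, PTPRC at 2.51 and a sum of 6.25 and 6.26 at 20 mg/kg against 6.28 and 6.33 with vehicle. Of 6 endothelial markers 2 were tested, with VWF and CLDN5 at the floor and a sum of 9.01 and 8.98 at 20 mg/kg against 8.98 and 9.12 with vehicle. Fibroblasts, leukocytes and endothelial cells of the host are mouse cells, and these human probe sets were not designed for mouse transcripts. Low or high readings of their markers therefore do not measure how much of such cells a tumour held. The part of these cells in the results was not tested.

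EGFR, the receptor of EGF, TGFA and related ligands, fell at 20 mg/kg. Its brightest probe set, 224999_at, read 12.43 and 12.40 in the vehicle arrays, 12.18 and 12.33 in the 4 mg/kg arrays and 11.71 and 11.63 in the 20 mg/kg arrays. Both 20 mg/kg arrays lay below all other arrays. The change between 20 mg/kg and vehicle was -0.74 (SE 0.07, 95% interval -0.93 to -0.56, adjusted p = 0.0291), a level 1.67-fold lower at the higher dose. Against 4 mg/kg it was -0.58 (SE 0.07), with arrays that did not overlap and an adjusted p of 0.0922, so it was not called. At 4 mg/kg the change from vehicle was -0.16 (95% interval -0.35 to 0.03, adjusted p = 0.362).

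The 2 other tested EGFR probe sets pointed the same way at 20 mg/kg against vehicle. Probe set 201983_s_at read 12.12 and 12.35 in the vehicle arrays, 11.23 and 11.90 in the 4 mg/kg arrays and 11.37 and 11.23 in the 20 mg/kg arrays. Probe set 201984_s_at read 10.74 and 10.84 in the vehicle arrays, 10.16 and 10.50 in the 4 mg/kg arrays and 9.94 and 9.996 in the 20 mg/kg arrays. Their changes between 20 mg/kg and vehicle were -0.94 and -0.82, as large as that of the brightest probe set, and with their wider spread neither was called (adjusted p = 0.171 and 0.0734 over all probe sets). Against vehicle they were -0.67 and -0.46 at 4 mg/kg, where the brightest probe set gave -0.16. On 201983_s_at the arrays of the 2 doses overlapped. How much of the fall was present at 4 mg/kg therefore depends on the probe set taken. The remaining 6 EGFR probe sets stayed below a log2 intensity of 4, 4 of them at the floor in all arrays. The EGFR call at 20 mg/kg rested on most of the arrays: leaving out vehicle replicate 1 (-0.73, adjusted p = 0.0638), vehicle replicate 2 (-0.76, 0.112), 20 mg/kg replicate 1 (-0.78, 0.135) or the second 20 mg/kg array (-0.71, 0.124) ended it. The call held narrowly without either 4 mg/kg array. Each fit without 1 array had fewer arrays to estimate the spread from, and the EGFR change itself stayed between -0.78 and -0.71. The call was also lost with no level filter (adjusted p = 0.0974). The mean of all 9 EGFR probe sets gave a smaller change of -0.28, still called (adjusted p = 0.0473). It takes in the 6 below the level filter, 5 of them tied in all arrays, which make the change smaller. It also holds the called probe set, so it is not separate support.

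ERBB3, which has little kinase activity and signals in pairs with ERBB2 or EGFR, was highest at 20 mg/kg but not called. Probe set 226213_at read 11.17 and 11.53 in the vehicle arrays, 11.31 and 11.62 in the 4 mg/kg arrays and 12.27 and 12.38 in the 20 mg/kg arrays. The 20 mg/kg arrays stood above the 4 others, and those 4 overlapped with each other. The change between 20 mg/kg and vehicle was 0.98 (SE 0.18, 95% interval 0.47 to 1.49, adjusted p = 0.0803). The second probe set, 202454_s_at, read 11.06 and 11.32 in the vehicle arrays, 10.94 and 11.54 in the 4 mg/kg arrays and 12.16 and 12.24 in the 20 mg/kg arrays, a change of 1.01 at the higher dose (adjusted p = 0.131). Probe set 1563253_s_at lay between 6.20 and 6.61 in the 6 arrays and differed by 0.14. ERBB3 differed between 20 mg/kg and 4 mg/kg by 0.86 (95% interval 0.35 to 1.37, adjusted p = 0.186), and between 4 mg/kg and vehicle by 0.12 (95% interval -0.39 to 0.63).

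ERBB2, the partner receptor that binds no ligand of its own, read 10.63 and 10.72 in the vehicle arrays, 10.28 and 10.70 in the 4 mg/kg arrays and 11.06 and 11.08 in the 20 mg/kg arrays on probe set 216836_s_at. Its 20 mg/kg arrays were also above the rest, by less than those of ERBB3. The change between 20 mg/kg and vehicle was 0.39 (95% interval -0.07 to 0.85, adjusted p = 0.262), and between 20 mg/kg and 4 mg/kg 0.58 (95% interval 0.12 to 1.04, adjusted p = 0.277). Neither was called. The second tested probe set, 210930_s_at, was close to the level filter at 4.04 to 4.55 and its groups overlapped. The 20 mg/kg group was thus the lowest for EGFR and the highest for ERBB2 and ERBB3.

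IGF1R, the receptor of IGF1 and IGF2, rose at 20 mg/kg on its brightest probe set. Probe set 225330_at read 9.71 and 9.62 in the vehicle arrays, 10.08 and 10.08 in the 4 mg/kg arrays and 10.34 and 10.54 in the 20 mg/kg arrays, so that the 3 groups did not overlap and followed the dose. The change between 20 mg/kg and vehicle was 0.78 (SE 0.08, 95% interval 0.54 to 1.02, adjusted p = 0.0382), a level 1.71-fold higher. At 4 mg/kg the change from vehicle was 0.41 (95% interval 0.17 to 0.65, adjusted p = 0.174). Against the lower dose, 20 mg/kg differed by 0.37 (95% interval 0.13 to 0.61, adjusted p = 0.215).

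The other IGF1R probe sets did not show this change. Probe set 203627_at read 9.43 and 9.41 in the vehicle arrays, 9.25 and 9.52 in the 4 mg/kg arrays and 9.43 and 9.66 in the 20 mg/kg arrays. Probe set 203628_at read 6.90 and 7.33 in the vehicle arrays, 6.68 and 6.99 in the 4 mg/kg arrays and 6.99 and 7.36 in the 20 mg/kg arrays. In both, the groups overlapped, and the changes between 20 mg/kg and vehicle were 0.13 (95% interval -0.25 to 0.50) and 0.06 (95% interval -0.62 to 0.74). The upper bound for 203627_at lay below the lower bound of 0.54 for 225330_at. The IGF1R call was lost without any 1 array, each time with a change of 0.68 to 0.88. The adjusted p was 0.0689 and 0.137 without vehicle replicates 1 and 2, 0.100 without either 4 mg/kg array, and 0.0827 and 0.0924 without 20 mg/kg replicates 1 and 2. With no level filter it was 0.122, and on the mean of all 5 IGF1R probe sets the change was 0.19 (adjusted p = 0.226). That mean takes in 2 probe sets at the floor in all arrays, which make the change smaller.

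INSR, the insulin receptor, was measured on 1 probe set only, 226212_s_at, at 5.85 and 5.88 in the vehicle arrays, 5.88 and 5.88 in the 4 mg/kg arrays and 5.88 and 6.18 in the 20 mg/kg arrays. The groups overlapped, and the change between 20 mg/kg and vehicle was 0.17 (95% interval -0.15 to 0.48, adjusted p = 0.464). Vehicle replicate 2, both 4 mg/kg arrays and 20 mg/kg replicate 1 had the same value. The change thus rests on the 2 remaining arrays and gives little information. Its other 4 probe sets were below the level filter.

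IRS1 had the largest difference in mean of the 10 genes, and it lay between the 2 doses. Probe set 204686_at read 10.71 and 10.22 in the vehicle arrays, 10.83 and 10.86 in the 4 mg/kg arrays and 9.32 in both 20 mg/kg arrays. The 20 mg/kg arrays were below all others and the 4 mg/kg arrays above all others. The change at 20 mg/kg was -1.53 against 4 mg/kg (SE 0.18, 95% interval -2.04 to -1.01, adjusted p = 0.0968), a level 2.88-fold lower at the higher dose. Against vehicle it was -1.14 (SE 0.18, 95% interval -1.66 to -0.63, adjusted p = 0.0630), 2.21-fold lower. Neither passed the threshold. Between 4 mg/kg and vehicle it was 0.38 (95% interval -0.13 to 0.89, adjusted p = 0.420).

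A second IRS1 probe set gave nearly the same picture. Probe set 242979_at read 8.84 and 8.68 in the vehicle arrays, 8.67 and 8.99 in the 4 mg/kg arrays and 7.74 and 7.72 in the 20 mg/kg arrays. Its change between 20 mg/kg and vehicle was -1.03 (95% interval -1.41 to -0.65, adjusted p = 0.0543), and between 20 mg/kg and 4 mg/kg -1.10 (adjusted p = 0.113). Here the vehicle and 4 mg/kg arrays overlapped, with a difference of 0.07. The third, 238933_at, was under the level filter at 3.24 and 3.73 in the vehicle arrays, 3.0003 and 3.03 in the 4 mg/kg arrays and 2.40 and 2.65 in the 20 mg/kg arrays, again lowest at the higher dose. The vehicle arrays of 204686_at were 0.49 log2 units apart, and which of them was used moved the results: without vehicle replicate 1 the change at 20 mg/kg was -0.90 (adjusted p = 0.0199), and without vehicle replicate 2 it was -1.39 (adjusted p = 0.0386), both past the threshold. The change at 4 mg/kg against vehicle was also past it without vehicle replicate 1, at 0.62 (adjusted p = 0.0327). With 1 vehicle array left, the spread of IRS1 itself came only from the 4 mg/kg pair (SD 0.02) and the 20 mg/kg pair, whose values were tied (SD 0), so that these passes rest in part on a tie and say nothing of the spread with vehicle.

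IRS2 read 8.72 and 9.37 in the vehicle arrays, 8.41 and 8.42 in the 4 mg/kg arrays and 8.36 and 8.14 in the 20 mg/kg arrays on probe set 209184_s_at. Both vehicle arrays lay above the dosed arrays. The change from vehicle was -0.79 at 20 mg/kg (95% interval -1.52 to -0.06, adjusted p = 0.183) and -0.63 at 4 mg/kg (95% interval -1.36 to 0.10, adjusted p = 0.355). The second probe set, 209185_s_at, read 8.25 and 8.04 in the vehicle arrays, 8.04 and 8.04 in the 4 mg/kg arrays and 8.03 and 7.75 in the 20 mg/kg arrays, a smaller change of -0.26 at 20 mg/kg. At 4 mg/kg against vehicle, the means of the 2 tested IRS1 probe sets were higher and that of 238933_at lower, while the means of both IRS2 probe sets were lower. Whether the 2 genes differ in their change at 4 mg/kg was not tested.

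**Figure D1:**
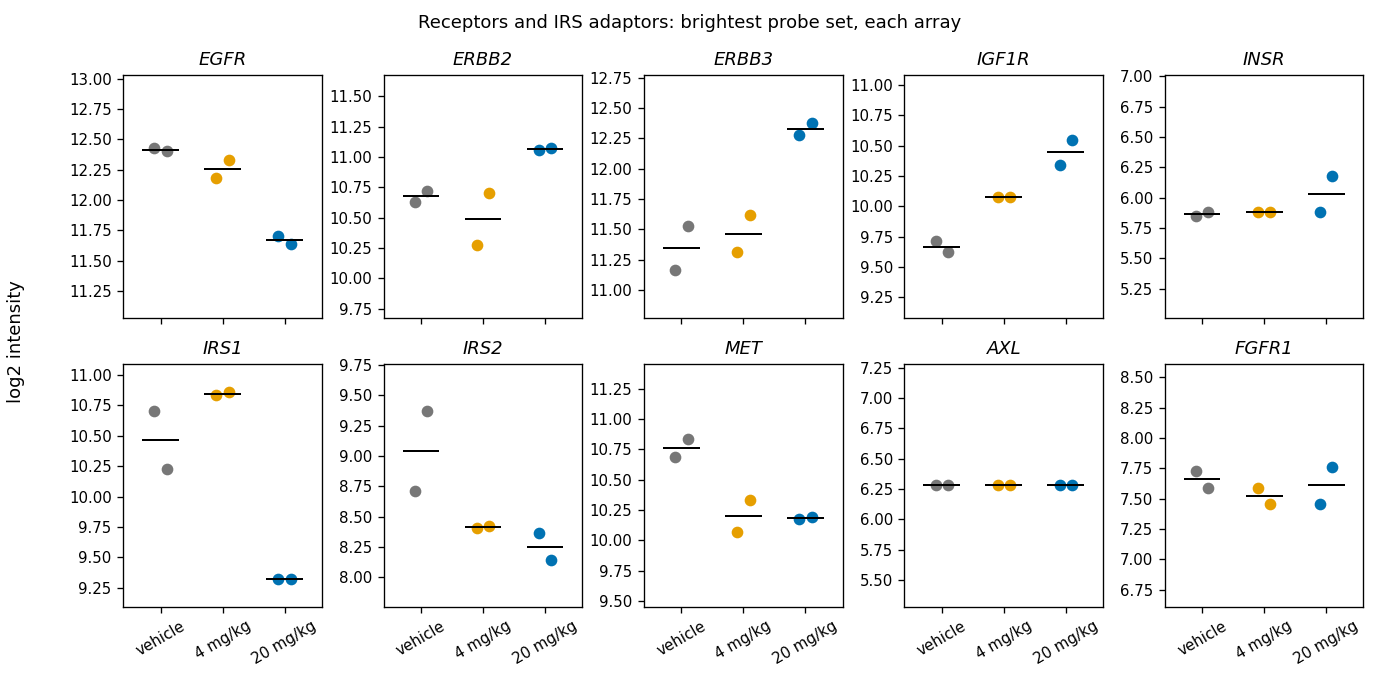
Log2 intensity of the brightest probe set of each of the 10 genes in every array (vertical axes, each with its own origin but the same span in height of about 2 units), by dose (horizontal axes). Points are arrays, 2 a group, and bars are group means; IRS1 stands at 9.32 in both 20 mg/kg arrays, ERBB3 is highest and EGFR lowest at 20 mg/kg, and AXL reads 6.28 in all 6 arrays.

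MET, the receptor of HGF, was lower in the dosed groups on most of its probe sets, without being called. Probe set 211599_x_at read 10.69 and 10.83 in the vehicle arrays, 10.07 and 10.33 in the 4 mg/kg arrays and 10.18 and 10.19 in the 20 mg/kg arrays. Both dosed groups lay below vehicle and overlapped with each other. The change from vehicle was -0.58 at 20 mg/kg (95% interval -0.89 to -0.26, adjusted p = 0.0862) and -0.56 at 4 mg/kg (95% interval -0.88 to -0.24, adjusted p = 0.172), and between 20 mg/kg and 4 mg/kg it was -0.02 (95% interval -0.34 to 0.30).

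The other MET probe sets did not all do the same at 4 mg/kg. Probe set 213807_x_at read 8.86 and 8.95 in the vehicle arrays, 8.31 and 8.59 in the 4 mg/kg arrays and 8.58 and 8.39 in the 20 mg/kg arrays. Probe set 213816_s_at read 7.07 and 7.65 in the vehicle arrays, 6.52 and 6.98 in the 4 mg/kg arrays and 6.35 and 6.42 in the 20 mg/kg arrays. Both were below vehicle at either dose, like the brightest. Probe set 203510_at read 9.92 and 9.82 in the vehicle arrays, 10.004 and 10.74 in the 4 mg/kg arrays and 9.60 and 9.60 in the 20 mg/kg arrays, so that its 4 mg/kg arrays were above vehicle and its 20 mg/kg arrays below. Its change at 4 mg/kg was 0.50 (95% interval -0.28 to 1.28), opposite in sign to the brightest. The direction of MET at 4 mg/kg therefore depends on the probe set taken.

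AXL and FGFR1 gave little information. AXL, the receptor of GAS6, read 6.28 in all 6 arrays on its tested probe set, equal to within 1e-06 log2 units, and its other probe set was at the floor. Such ties arise when the summary of the probes returns one value for several arrays, and an equal reading of this kind does not show that the transcript was unchanged. FGFR1, a receptor of fibroblast growth factors, read 7.73 and 7.59 in the vehicle arrays, 7.59 and 7.46 in the 4 mg/kg arrays and 7.46 and 7.76 in the 20 mg/kg arrays on probe set 207937_x_at, with overlap of all groups. Its change at 20 mg/kg from vehicle was -0.05 (95% interval -0.43 to 0.33, adjusted p = 0.903). Another FGFR1 probe set, 222164_at, lay between 7.01 and 7.43, another at 4.93 to 4.95, and the last read 5.42 in all 6 arrays.

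Counted over the 10 genes, 1 rose (IGF1R), 1 fell (EGFR) and 8 were not called between 20 mg/kg and vehicle, beside 4.33% of all tested genes called, 2.26% higher and 2.07% lower. The arrays of the groups did not overlap for 7 of the 10 genes, 3 higher (ERBB2, ERBB3 and IGF1R) and 4 lower (EGFR, IRS1, IRS2 and MET), and the same held for 50.4% of all genes, 24.5% higher and 25.9% lower. With no adjustment, 6 of the 10 had p under 0.05, against 24.2% of all genes. The median size of the change, whatever its sign, was 0.66 among the 10 genes and 0.17 among all genes, while the median with sign was -0.03 among the 10 genes and 0.00 among all. Between 4 mg/kg and vehicle, limma called 0 of the 10 genes, beside 0.0584% of all genes. Before adjustment, 2 of the 10 (IGF1R and MET) had p under 0.05, against 17.0% of all genes. The median size at this dose was 0.17 among the 10 genes and 0.15 among all, and the groups did not overlap for 5 of the 10 genes and for 37.5% of all genes. Between 20 mg/kg and 4 mg/kg, limma called 0 of the 10 genes, beside 0.37% of all genes, and 5 had p under 0.05 before adjustment, against 13.4% of all. The median size was 0.26 among the 10 genes and 0.12 among all, with no overlap for 6 of the 10 genes and 36.4% of all genes. Both comparisons with vehicle share the vehicle arrays, and both with 20 mg/kg share the arrays of that dose, so that none is independent of the others.

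**Figure D2:**
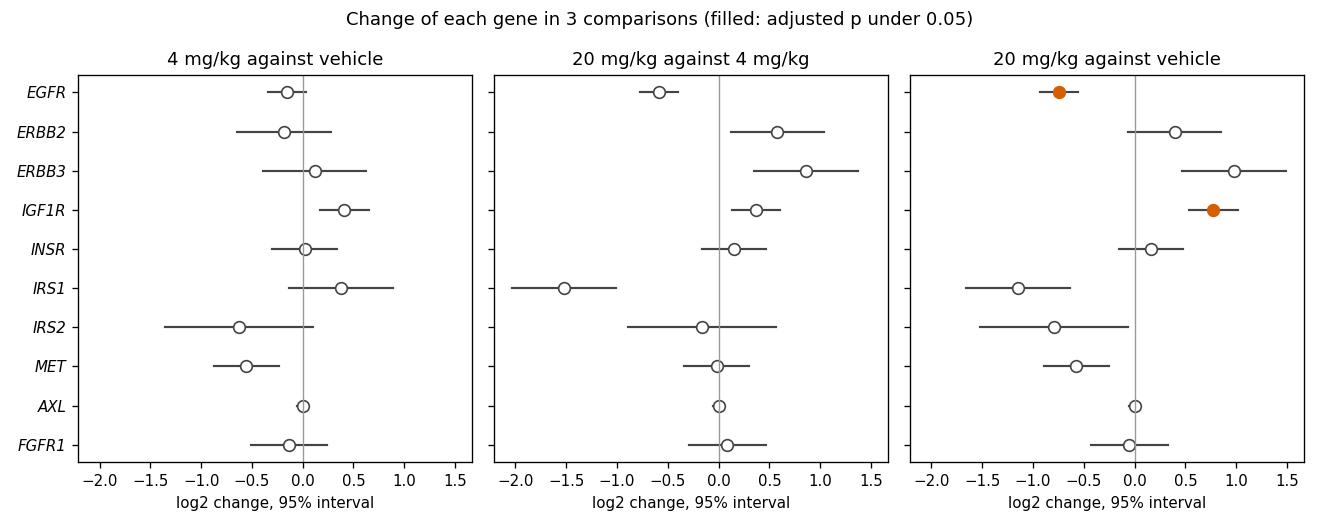
Log2 change of each of the 10 genes (points) with its 95% interval from limma (lines) in the 3 comparisons, 1 per panel; the horizontal axes share a scale and the vertical line marks 0. Filled points are called: EGFR at -0.74 and IGF1R at 0.78, both between 20 mg/kg and vehicle, while IRS1 is the farthest from 0, at -1.53 between 20 mg/kg and 4 mg/kg.

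Taken by probe set, 2 of the 25 tested were called between 20 mg/kg and vehicle (224999_at of EGFR and 225330_at of IGF1R), beside 3.19% of all 16900 tested probe sets. In this comparison 12 of the 25 and 22.2% of all probe sets had p under 0.05 before adjustment. Limma called 0 of the 25 between 4 mg/kg and vehicle, beside 0% of all probe sets, with 4 of the 25 and 15.2% of all probe sets at p under 0.05 before adjustment. It called 0 of the 25 between 20 mg/kg and 4 mg/kg, beside 0.254% of all, with 7 of the 25 and 12.5% of all at p under 0.05 before adjustment. Of the 8 genes with at least 2 tested probe sets, 7 had all of them on the same side of 0 at 20 mg/kg against vehicle. They were lower for EGFR (3 of 3), IRS1 (2 of 2), IRS2 (2 of 2) and MET (4 of 4) and higher for ERBB2 (2 of 2), ERBB3 (3 of 3) and IGF1R (3 of 3). The exception was FGFR1, with 1 higher, 2 lower and 1 tied. Of the 4117 genes with at least 2 tested probe sets, 48.8% had all on one side. At 4 mg/kg against vehicle, EGFR, ERBB2, IRS1 and IRS2 kept to one side, and ERBB3, IGF1R, MET and FGFR1 were split, beside 41.2% of the 4117 genes on one side.

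**Figure D3:**
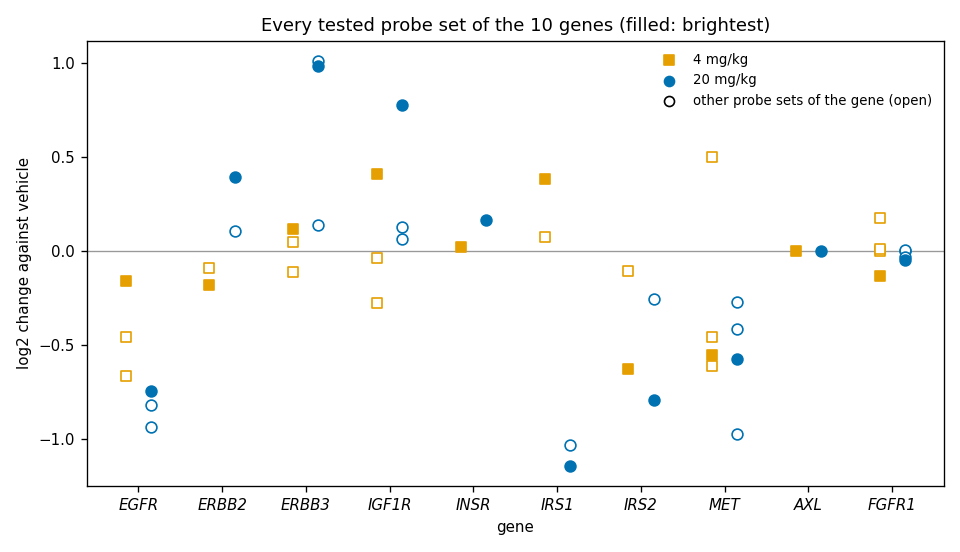
Log2 change against vehicle (vertical axis) of all 25 tested probe sets, by gene (horizontal axis), at 4 mg/kg (squares) and 20 mg/kg (circles); the filled mark is the brightest probe set of the gene and open marks are the others. The 3 EGFR probe sets lie between -0.94 and -0.74 at 20 mg/kg, and only 1 of the 3 IGF1R probe sets lies far from 0 there, at 0.78.

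The ligands of these receptors were sparsely measured. Of 25 ligand genes listed, 22 were annotated and 10 tested. Limma called 0 of the 10 between 20 mg/kg and vehicle, beside 4.33% of all genes. Before adjustment 4 had p under 0.05, against 24.2% of all genes, and the median change was 0.11. EREG (epiregulin), a ligand of EGFR, read 9.38 and 9.37 in the vehicle arrays, 9.58 and 9.94 in the 4 mg/kg arrays and 7.67 and 8.10 in the 20 mg/kg arrays. Its change was -1.50 between 20 mg/kg and vehicle (SE 0.21, adjusted p = 0.0546) and -1.88 between 20 mg/kg and 4 mg/kg (adjusted p = 0.0914). TGFA, another ligand of EGFR, read 9.30 and 8.86 in the vehicle arrays, 9.41 and 9.41 in the 4 mg/kg arrays and 7.64 and 7.98 in the 20 mg/kg arrays. Both were thus lowest at 20 mg/kg with no overlap, and neither was called. EGF itself read 7.99 and 8.05 in the vehicle arrays, 8.55 and 8.75 in the 4 mg/kg arrays and 8.76 and 9.09 in the 20 mg/kg arrays, a change of 0.90 at the higher dose (adjusted p = 0.0639). The human probe sets for NRG1 (the ligand of ERBB3) and HGF lay near the floor, at 2.21 and between 2.20 and 2.39, and GAS6 read 7.89 in all 6 arrays. Ligands made by the mouse host are not what these human probe sets were designed for, and were not analysed here.

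Among listed regulators of receptors and of their signalling, not all of which inhibit receptors, called changes went in both directions. Of 21 tested genes in a list of 23, 1 rose and 2 fell between 20 mg/kg and vehicle, beside 2.26% and 2.07% of all genes. The other 18 were not called. The median change over the 21 was 0.04, and 8 had p under 0.05 before adjustment, against 24.2% of all genes. ERRFI1 (MIG6), which binds and inhibits EGFR and ERBB2 kinases, read 12.94 and 12.96 in the vehicle arrays, 12.33 and 12.27 in the 4 mg/kg arrays and 11.26 and 10.73 in the 20 mg/kg arrays. The groups did not overlap, and ERRFI1 fell by 1.96 at 20 mg/kg (SE 0.20, adjusted p = 0.0350), 3.88-fold. LRIG1, a membrane protein that promotes the breakdown of ERBB receptors and MET, read 8.62 and 8.46 in the vehicle arrays, 8.95 and 9.40 in the 4 mg/kg arrays and 9.94 and 10.02 in the 20 mg/kg arrays, a rise of 1.44 (SE 0.18, adjusted p = 0.0466). TRIB1, a pseudokinase that brings proteins to the ubiquitin ligase COP1, read 9.60 and 9.62 in the vehicle arrays, 8.98 and 9.35 in the 4 mg/kg arrays and 8.39 and 8.34 in the 20 mg/kg arrays, a fall of 1.25 (SE 0.14, adjusted p = 0.0386). All 3 followed the dose. The ERRFI1 call was lost without any of vehicle replicates 1 and 2, 4 mg/kg replicates 1 and 2 and 20 mg/kg replicate 2 (change -1.97 to -1.69, adjusted p = 0.0591 to 0.136). That of TRIB1 was lost without vehicle replicate 1 or 2 or 20 mg/kg replicate 1 or 2 (adjusted p = 0.0844 to 0.178), and that of LRIG1 without any 1 array (adjusted p = 0.0543 to 0.198). Averaged over all of its probe sets, whatever their level, the TRIB1 change was -0.43 and that of LRIG1 0.36, and both were still called. Such an average holds the brightest probe set, so it is not separate support. Flat probe sets make its change and its spread smaller.

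Among receptor adaptors, 16 of 27 listed genes were tested, with a median change of 0.03 between 20 mg/kg and vehicle. Of the 16, 5 had p under 0.05 before adjustment, against 24.2% of all genes. Beside 2.26% of all genes, 1 of the 16 rose. It was NCK1, which links phosphorylated receptors to the actin machinery, with 10.06 and 9.69 in the vehicle arrays, 10.91 and 11.26 in the 4 mg/kg arrays and 12.07 and 11.87 in the 20 mg/kg arrays (change 2.09, SE 0.20, adjusted p = 0.0326). The size rested on the probe set: the next brightest gave 0.74, still called, and the brightest not marked as open to cross-hybridisation gave 0.68 (adjusted p = 0.180). The NCK1 call was also lost when any array other than vehicle replicate 1 was left out (adjusted p = 0.0757 to 0.160). GAB1, the adaptor of MET and EGFR that binds PI3K and PTPN11, had the smallest p of the list between 20 mg/kg and 4 mg/kg (change 0.53, adjusted p = 0.111).

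Downstream, in the PI3K and AKT pathway, 2 of 16 tested genes rose and 0 fell between 20 mg/kg and vehicle. The shares over all genes were 2.26% and 2.07%, and the median change of the 16 was 0.26. Of the 16, 8 had p under 0.05 before adjustment, against 24.2% of all genes. PDPK1 (PDK1), the kinase that activates AKT, read 10.17 and 9.995 in the vehicle arrays, 10.69 and 10.89 in the 4 mg/kg arrays and 10.98 and 11.04 in the 20 mg/kg arrays, a rise of 0.93 (SE 0.10, adjusted p = 0.0386). RICTOR, a subunit of the mTORC2 complex that also phosphorylates AKT, read 9.63 and 9.73 in the vehicle arrays, 10.19 and 10.53 in the 4 mg/kg arrays and 10.76 and 10.82 in the 20 mg/kg arrays, a rise of 1.11 (SE 0.13, adjusted p = 0.0445). Both increased with dose without overlap. The PDPK1 rise was absent on its next brightest probe set, where the change was 0.03, and its call was lost without any 1 array (adjusted p = 0.0543 to 0.173). On the next brightest probe set RICTOR changed by 0.74, and its call was lost without vehicle replicate 1 or 2 or 20 mg/kg replicate 1 or 2 (adjusted p = 0.0958 to 0.193). FOXO3, a transcription factor that AKT keeps out of the nucleus, changed by 0.73 (adjusted p = 0.0862).

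In the RAS, RAF, MEK and ERK cascade itself, 8 of 16 listed genes were tested, and 1 fell between 20 mg/kg and vehicle, beside 2.07% of all genes. The median change of the 8 was -0.38, and 4 had p under 0.05 before adjustment, against 24.2% of all genes. ARAF, a RAF kinase, read 9.44 and 9.51 in the vehicle arrays, 8.95 and 9.04 in the 4 mg/kg arrays and 9.002 and 9.01 in the 20 mg/kg arrays, a fall of 0.47 (SE 0.05, adjusted p = 0.0362), with the dosed groups overlapping. Its call was lost without any 1 array (adjusted p = 0.0540 to 0.170). Of 16 tested genes that ERK signalling induces, 12 fell and 0 rose between 20 mg/kg and vehicle, beside 2.07% and 2.26% of all genes. The median change over the 16 was -2.10. All 16 lay lower without overlap, beside 25.9% of all genes. Of the 16, 15 had p under 0.05 before adjustment, against 24.2% of all genes. DUSP6, the phosphatase of ERK, read 13.70 and 13.64 in the vehicle arrays, 13.43 and 13.05 in the 4 mg/kg arrays and 8.28 and 8.12 in the 20 mg/kg arrays. Of these 16 genes 4 fell between 20 mg/kg and 4 mg/kg, beside 0.37% of all genes called in either direction. In this comparison all 16 lay lower without overlap, and 15 had p under 0.05 before adjustment. Of all genes, 36.4% did not overlap, in either direction, and 13.4% had p under 0.05. The 4 calls were lost when either vehicle array, either 20 mg/kg array or 4 mg/kg replicate 2 was left out. Nearly all calls over all genes were lost in those fits too. Limma called 0 of the 16 at 4 mg/kg against vehicle, beside 0.0584% of all genes. Before adjustment 6 of the 16 had p under 0.05 there, against 17.0% of all genes. The count of 12 was smaller whenever any 1 array was left out. Fewer of all tested genes were called as well, except without vehicle replicate 1. Each such fit had fewer arrays to estimate the spread from. The changes of the 10 genes described here were smaller than that of DUSP6, at -5.47 between 20 mg/kg and vehicle (adjusted p = 0.0104) and -4.19 on its next brightest probe set (adjusted p = 0.0112). The DUSP6 call was lost without 20 mg/kg replicate 1 or 2 (adjusted p = 0.0752 and 0.0697).

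**Figure D4:**
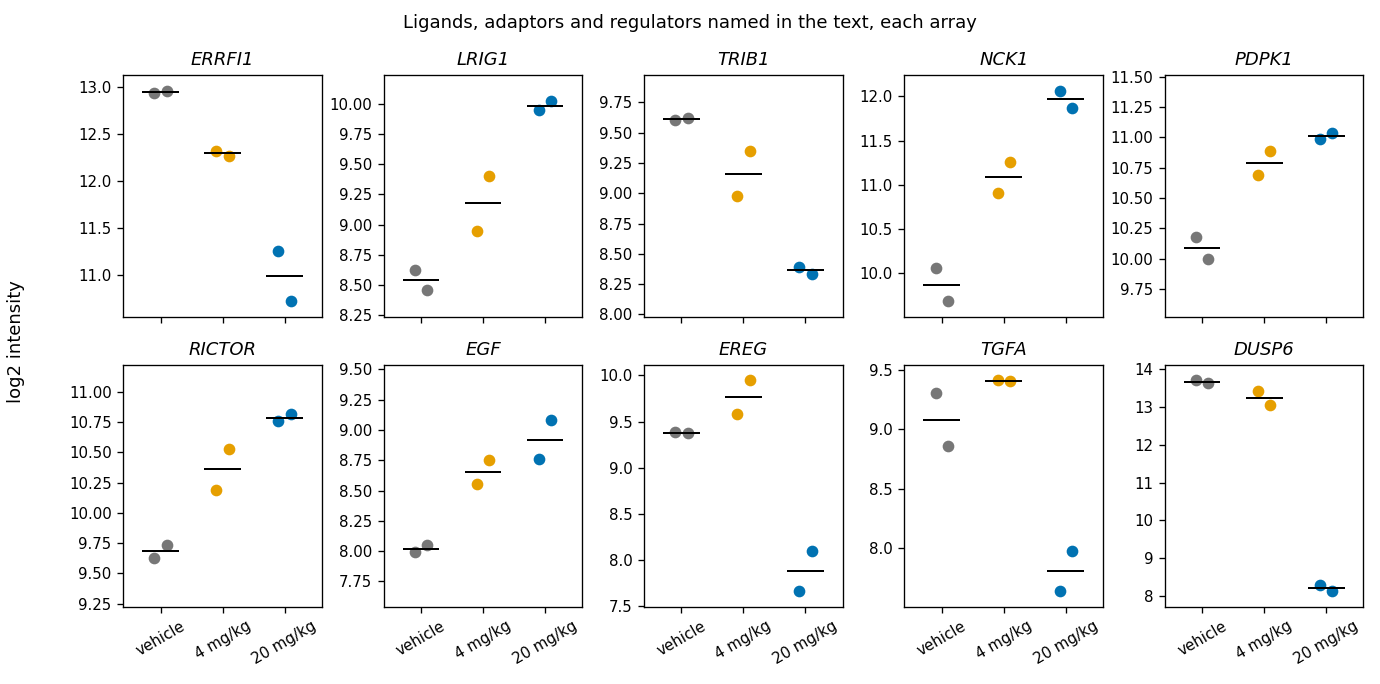
Log2 intensity of 10 ligands, adaptors and regulators in every array (vertical axes, each with its own range), by dose (horizontal axes); points are arrays, 2 a group, and bars are group means. ERRFI1 and TRIB1 descend and LRIG1, NCK1, PDPK1, RICTOR and EGF ascend with dose, while EREG, TGFA and DUSP6 are lowest at 20 mg/kg.

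Of 33 other receptor tyrosine kinases listed, 31 were annotated and 16 passed the level filter. Limma called 0 of these 16 in each of the 3 comparisons. Before adjustment, 0 had p under 0.05 between 20 mg/kg and vehicle, 1 between 4 mg/kg and vehicle and 1 between 20 mg/kg and 4 mg/kg. Of all genes, 24.2%, 17.0% and 13.4% had p under 0.05 in these comparisons, and 4.33%, 0.0584% and 0.37% were called. The median change at 20 mg/kg against vehicle was -0.05. The smallest p-values between 20 mg/kg and vehicle were those of ROS1, a receptor kinase close to ALK, at -0.39 (adjusted p = 0.333), and MST1R (RON), a relative of MET, at -0.22 (adjusted p = 0.394). ALK itself changed by -0.08 (95% interval -0.41 to 0.25, adjusted p = 0.730). ERBB4, the fourth ERBB receptor, was under the filter with a mean of 3.52, and KIT and PDGFRB had means of 2.19. Of the 5 tested genes in a list of IGF-binding proteins and related genes, limma called 0 in any comparison. Their median change between 20 mg/kg and vehicle was -0.08. In that comparison 2 had p under 0.05 before adjustment, against 24.2% of all genes. IGFBP4 changed by -0.53 (adjusted p = 0.187) and IGFBP7 by 0.45 (adjusted p = 0.111) between 20 mg/kg and vehicle. Over all of these pathway lists limma called 19 of the 107 tested genes at 20 mg/kg against vehicle, beside 4.33% of all genes. Of the 19, 12 were genes that ERK signalling induces. In that comparison 46 of the 107 had p under 0.05 before adjustment. Between 20 mg/kg and 4 mg/kg 4 were called, beside 0.37% of all genes, and 32 had p under 0.05. Limma called 0 of the 107 at 4 mg/kg against vehicle, beside 0.0584% of all genes. There 27 of the 107 had p under 0.05 before adjustment, against 17.0% of all genes.

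For the 3 genes with the widest range of group means, the genes with the most similar course over the 6 arrays were found by Euclidean distance of log2 values, each centred on its own mean. With 6 arrays of 3 groups, many genes share any given course, and the distances are a description. For IRS1 the nearest were TGFA (distance 0.27 log2 units), SLC6A14, an amino acid transporter (0.36), and KCTD12 (0.39). TGFA and IRS1 were both highest in mean at 4 mg/kg and lowest at 20 mg/kg. For ERBB3 the nearest were ATG14 (0.17) and RB1CC1 (0.22), both needed to start autophagy, and the homeobox gene IRX5 (0.23), all with means close to vehicle at 4 mg/kg and higher at 20 mg/kg. For IRS2 they were the protocadherin PCDH1 (0.11), the fucosyltransferase FUT3 (0.14) and the integrin ITGA5 (0.17), all highest with vehicle.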

How the data were processed

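The deposited table holds linear intensities of 54675 probe sets in 6 arrays. Per the submitters' processing notes, they were produced by the GCRMA method under R 2.10.0. The sources used here do not state which arrays were normalized as one set. Median polish, the last step of GCRMA, can return equal values in several arrays: 531 of the tested genes were tied in every group, and such ties lower the spread that limma estimates. Intensities were converted to log2. The platform's annotation, possibly outdated, gave the gene symbols: 1 for 41097 probe sets, several for 1801 and none listed for 11777. Each gene was represented by its brightest single-gene probe set, and 10271 of 19775 genes had a mean log2 of at least 4 and were tested. A second fit took all 16900 single-gene probe sets at or above that level.

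All 6 arrays entered 1 limma model (lmFit and eBayes, limma 3.58.1, R 4.3.3) with 3 contrasts, two-sided, and Benjamini-Hochberg adjustment over all genes or probe sets at 0.05. The model had 3 residual and 0.723 prior degrees of freedom. Precision is limited by having 2 arrays a group: an exact permutation test of 2 against 2 arrays cannot go below p = 0.333. The 10 genes, the pathway and marker lists and the naming rule (all 10 genes; of a list, up to 4 called genes a direction or else the 2 smallest p-values; the 3 nearest genes of the 3 genes with the widest range; ALK, EML4, DUSP6, NRG1, HGF, GAS6, ERRFI1 and FOXO3) were chosen with earlier results of these data known. The fit was tested on simulated data. Alternatives changed the pseudocount, level filter, choice of probe set, normalization, arrays in the fit, replicate block and each array in turn. Leaving out the tied genes was added after seeing the data. Sequences and genome coordinates were not used here.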

Additional observations from a re-analysis of the deposited data

How the results depend on the processing

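Between 20 mg/kg and vehicle the 445 called genes became 57 with no level filter, 207 on the next brightest probe set, 282 without probe sets open to cross-hybridisation, 1536 with a second quantile normalization, 1958 with centring, 136 in a fit of only the 4 arrays compared, 819 without tied genes, and 5 to 802 without 1 array. Of the 10 genes, 2 were called; this became 0 with no filter or the next brightest probe set, 6 with quantile normalization or centring, 1 with 4 arrays, 4 without tied genes (EGFR, IGF1R, ERBB3 and IRS1), and 0 to 1 without 1 array. Of their 25 probe sets, 2 were called; this became 0 with no filter or 4 arrays, 4 at a mean of at least 6, 10 with quantile normalization, 11 with centring, and 0 to 1 without 1 array. Between 4 mg/kg and vehicle the 6 genes became 3 with no filter, 41 with quantile normalization (30 higher, 11 lower, against 3 and 3), 766 with centring (517 higher, 249 lower), 0 with log2(value + 16), a mean of at least 6, the next brightest probe set, the mean of all probe sets, 4 arrays or no tied genes, and 0 to 475 without 1 array. Of the 10 genes, 1 was called with centring (MET), and 0 to 1 without 1 array (IRS1 without vehicle replicate 1); of their probe sets, 3 with centring and 0 to 1 without 1 array. Between 20 mg/kg and 4 mg/kg the 38 genes became 8 with no filter, 20 on the next brightest probe set, 333 with quantile normalization (151 higher, 182 lower, against 13 and 25), 494 with centring (227 higher, 267 lower), 0 with 4 arrays, 77 without tied genes, and 0 to 218 without 1 array. Of the 10 genes, 1 was called on the mean of all probe sets (IRS1) and 4 with quantile normalization or centring (EGFR, ERBB2, ERBB3 and IRS1); of their probe sets, 6 with quantile normalization, 5 with centring and 0 to 1 without 1 array. Arrays that share a replicate number did not deviate together (r = 0.15 for 4 mg/kg and vehicle, -0.12 for 20 mg/kg and vehicle, 0.13 for 20 mg/kg and 4 mg/kg). With the number as a replicate block, 93, 0 and 0 genes were called at 20 mg/kg and 4 mg/kg against vehicle and at 20 mg/kg against 4 mg/kg, and 0 of the 10 genes and 0 of their probe sets in each.

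The sign of a change of the 10 genes turned in 22 of 483 values under other settings. Without 1 array, FGFR1 at 20 mg/kg against vehicle ran from -0.20 to 0.10, above 0 when vehicle replicate 1 (0.019) or 20 mg/kg replicate 1 was left out. At 4 mg/kg against vehicle, the next brightest probe set gave -0.040 for IGF1R, and it and the set without cross-hybridisation gave 0.50 for MET and 0.17 for FGFR1. The mean of all probe sets gave -0.020 for ERBB3, -0.0054 for IRS1 and 0.0070 for FGFR1. INSR was -0.018 with quantile normalization and -0.081 with centring. Without 1 array, ERBB3 ran from -0.064 to 0.30, below 0 when vehicle replicate 1 or the second 4 mg/kg array (-0.034) was left out, and ERBB2 from -0.40 to 0.028, above 0 when 4 mg/kg replicate 1 was. At 20 mg/kg against 4 mg/kg, FGFR1 was -0.21 on the next brightest probe set and without cross-hybridisation, -0.021 on the mean, and ran from -0.066 to 0.24 without 1 array, below 0 when 20 mg/kg replicate 2 was left out. MET was 0.026 with quantile normalization, 0.047 with centring, and ran from -0.15 to 0.11 without 1 array, above 0 when 4 mg/kg replicate 2 was left out. Centring moved the median of all genes by at most 0.10 log2 units. The causes were not tested, beyond the smaller number of arrays or genes in some settings. EGFR at 20 mg/kg against vehicle was called in 10 of 17 other settings, IGF1R in 6 and IRS1 in 7. These settings are not separate tests. In this comparison, leaving out either 4 mg/kg array gives the same fit as taking only the 4 arrays compared, so 1 fit is counted more than once. Several other settings reuse the values of the same probe set. A signal near the floor, as for NRG1 and HGF, gives little measure of change.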
